A study of Mus musculus with 64 samples.

Results

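The 10 genes described here encode chains of fibrillar collagens (Col1a1, Col1a2, Col3a1, Col5a1, Col5a2) and of collagens that associate with fibrils, cell surfaces or basement membranes (Col6a1, Col6a2, Col8a1, Col14a1, Col15a1). They were chosen by name, with earlier results of these data known, and are 10 of the 36 collagen genes, and of the 16913 genes, in the table of gene counts, and all 10 passed the filter on low counts. The study profiled hearts of C57BL/6J mice by bulk RNA sequencing in 64 libraries, each labelled as a biological replicate. Mice either carried the cTnT-delta160E form of cardiac troponin T (TG), in which a glutamate is deleted and which serves as a model of hypertrophic cardiomyopathy, or were non-transgenic (nTG). They either stayed sedentary or ran on a treadmill (trained) for 6 weeks, on 3 days per week, in 31-minute sessions of high-intensity interval training (HIIT) where 4 fast intervals (85%) and 4 slow ones (50%) were set from the mean speed that all mice reached in a graded exercise test.

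Of male hearts, 7 were from nTG mice that stayed sedentary, 8 from nTG mice that trained, 9 from sedentary and 8 from trained TG mice. The female hearts numbered 8 (nTG) and 8 (TG) in the sedentary groups and 10 (nTG) and 6 (TG) in the trained groups, so 1 group is smaller and 1 larger than the 7 to 9 samples per group that the series description gives. Ages, the promoter that drives the transgene and the chamber sampled are not given in the sources used here. All groups had the same strain and housing, and no surgery, drug or second allele is named for any of them.

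The columns of the gene table did not follow their names. Taken by name, 32 libraries contradicted their labelled sex by sex-linked genes and 30 their genotype by the counts of Tnnt2, the gene of the transgene product. Labels were therefore carried over from the table of long non-coding RNAs: each of its columns was joined to the gene column with the highest correlation, over 389 autosomal transcripts present in both tables and none of the 10 collagens. The best correlations lay between 0.599 and 0.863 and the next best at up to 0.404. With these joined columns no library contradicted its sex or genotype, and Tnnt2 lay between 2665 and 3428 CPM (counts scaled to the library total) in nTG and between 6903 and 12001 CPM in TG hearts. All other CPM values given here were scaled to library totals adjusted by the TMM method. No gene checks the training label. Libraries held 34.6 M to 67.1 M gene counts (median 48 M), and 13.4% to 20.4% of them were mitochondrially encoded. TG trained male replicate 4 and nTG sedentary female replicate 4 stood apart from their groups in the genes described here. Where the number of the 10 genes that passed changes without them, it is given in both ways.

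Collagens are triple helices of 3 chains that are hydroxylated in the endoplasmic reticulum, secreted as procollagens, trimmed by proteases and crosslinked by lysyl oxidases. In the heart, fibrils of types I and III, nucleated by type V, hold the muscle bundles together and are made mostly by fibroblasts, while type VI forms beaded filaments next to cells. Types XIV and XV bind to fibrils or lie at the border between basement membrane and matrix, and the network-forming type VIII is known from vessels and remodelled myocardium.

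The 250 bases before the start of Col1a2, Col3a1 and Col5a1 are shown, from RefSeq on GRCm38.p6 and on the plus strand. The other fibrillar genes, Col1a1 and Col5a2, had no such window. Capitals mark the letters of 4 motifs searched on both strands. The motif CAGACA holds the core of the SMAD-binding element, and the motif CCAAT is the CCAAT box. The letters GGGCGG are those of the GC box, and the letters TATAAA those of the TATA box. No motif overlapped another in these windows. The Col1a2 window lies inside the GENCODE span of that gene because RefSeq places the start further downstream.
Col1a2, chr6:4505368-4505617: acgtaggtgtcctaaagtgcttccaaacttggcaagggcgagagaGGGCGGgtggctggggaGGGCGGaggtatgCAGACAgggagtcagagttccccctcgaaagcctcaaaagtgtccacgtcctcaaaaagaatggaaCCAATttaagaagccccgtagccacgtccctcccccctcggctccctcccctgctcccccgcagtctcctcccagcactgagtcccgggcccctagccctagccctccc
Col3a1, chr1:45311288-45311537: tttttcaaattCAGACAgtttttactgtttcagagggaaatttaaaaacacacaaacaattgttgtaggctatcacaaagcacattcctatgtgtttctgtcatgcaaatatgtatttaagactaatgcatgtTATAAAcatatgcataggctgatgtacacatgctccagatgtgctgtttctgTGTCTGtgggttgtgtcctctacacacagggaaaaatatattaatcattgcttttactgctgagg
Col5a1, chr2:27886175-27886424: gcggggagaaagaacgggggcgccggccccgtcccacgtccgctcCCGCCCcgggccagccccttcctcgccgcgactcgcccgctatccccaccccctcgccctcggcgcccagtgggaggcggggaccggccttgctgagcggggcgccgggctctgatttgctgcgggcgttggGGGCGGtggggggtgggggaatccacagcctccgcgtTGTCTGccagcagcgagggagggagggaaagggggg
The letters CAGACA were found in the windows of Col1a2, Col3a1 and Col5a1, as it was in that of Col8a1, so in 4 of the 7 members that had a window. Over all 32851 windows of this length, 17.1% held it. GGGCGG was found in Col1a2, Col5a1, Col6a2 and Col8a1 and in 32.7% of all windows. CCAAT was found in Col1a2 (33.8% of all windows) and TATAAA in Col3a1 (12.4% of all windows). Members were counted as genes with the letters in any of their windows, and Col6a2 had more than a single window. The percentages are of single windows, so the units differ. These are matches of letters and were not tested for binding.

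Per kilobase of annotated exon, the order of the median levels over the 64 libraries was Col15a1 (30.8 CPM per kb), Col6a1 (28.2), Col1a1 (27.2), Col3a1 (23.8), Col6a2 (15.1), Col1a2 (13.2), Col5a1 (13), Col14a1 (4.20), Col5a2 (3.70) and Col8a1 (3.65). The upper 7 were separated from the lower 3, since Col5a1 was above Col14a1 in 64 of 64 libraries. Within these sets some neighbours kept their order in most libraries and others did not. Col15a1 was above Col6a1 in 54 libraries, Col1a1 above Col3a1 in 57 and Col6a2 above Col1a2 in 51. Col6a1 was above Col1a1 in 40 libraries, Col1a2 above Col5a1 in 34, Col14a1 above Col5a2 in 34 and Col5a2 above Col8a1 in 32. Col3a1 was above Col6a2 in all 64.

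Chains of 1 collagen type varied less against each other than the single genes did over the libraries. The ratio of the levels per kilobase of Col1a1 to Col1a2 was 2.03 ± 0.16 (SD, n = 64; range 1.69 to 2.43). That of Col6a1 to Col6a2 was 1.87 ± 0.088 (SD, n = 64; range 1.72 to 2.08), and that of Col5a1 to Col5a2 was 3.55 ± 0.38 (SD, n = 64; range 2.76 to 4.57). Lengths are unions of all annotated exons, so the ratios depend on the annotation. Before division by length, the median levels were 178 CPM (Col1a1) and 164 CPM (Col1a2), and 124 CPM (Col6a1) and 126 CPM (Col6a2). Col14a1 spanned the widest range, 8.07-fold from the lowest to the highest library, while the other 9 genes spanned 2.04-fold (Col5a1) to 3.73-fold (Col3a1).

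**Figure D1:**
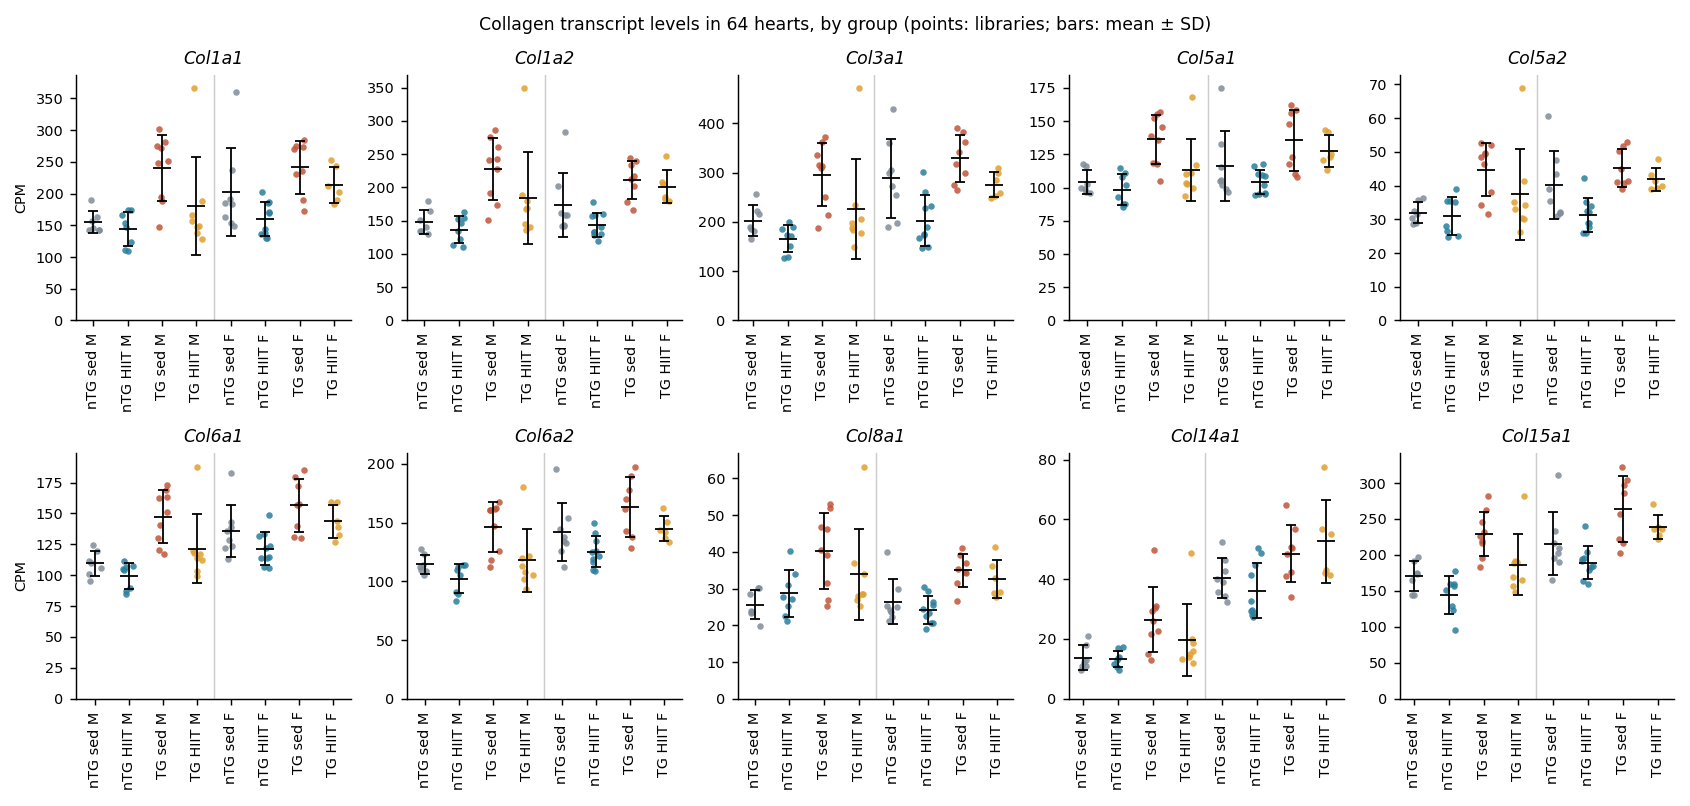
CPM (vertical axes, from 0) of each of the 10 collagen genes in the 8 groups (sed, sedentary; HIIT, trained; M, male; F, female). Points are libraries and bars are the mean ± SD; the single high point of the trained TG males in every panel is replicate 4, and Col14a1 is higher in the female groups.

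The first comparison asks how the transgene changes collagen transcripts in hearts of sedentary males. All 10 genes were higher in TG than in nTG hearts, by 1.28-fold (Col6a2) to 1.95-fold (Col14a1), and all 10 passed an adjusted p of 0.05. The test was edgeR's quasi-likelihood test in 1 model of the 8 groups, with Benjamini-Hochberg adjustment over all 16913 genes. Among all genes 9.39% passed as higher and 11.2% as lower. The median log2 fold change was 0.52 over the 10 members and -0.0052 over all genes.

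Col1a1 (ENSMUSG00000001506, chr11:94936224-94953042, plus strand, GRCm38) encodes the main chain of type I collagen, the bulk of scar and interstitial fibres. Its level was 142, 146 and 190 CPM (lowest, median, highest) in 7 sedentary nTG males and 147, 252 and 302 CPM in 9 sedentary TG males. Of the 9 TG hearts, 7 were above every nTG heart, so the groups overlapped in 2 TG libraries. The log2 fold change was 0.63 ± 0.16 (SE), with an adjusted p of 0.0025 by edgeR.

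Col1a2 (ENSMUSG00000029661, chr6:4504814-4541544, plus) encodes the partner chain. It lay at 130, 141 and 179 CPM in nTG and at 151, 242 and 287 CPM in TG hearts, with 7 of 9 TG hearts above every nTG heart. Its log2 fold change was 0.62 ± 0.14 (SE; edgeR's adjusted p 0.00059). Col3a1 (ENSMUSG00000026043, chr1:45311538-45349706, plus), the chain of the thinner and more compliant type III fibres, lay at 166, 190 and 257 CPM in nTG and at 188, 314 and 373 CPM in TG hearts. Here 6 of 9 TG hearts were above every nTG heart, and the log2 fold change was 0.55 ± 0.16 (SE; edgeR's adjusted p 0.011). The ratio of Col3a1 to Col1a1 per kilobase was 0.88 ± 0.11 (SD, n = 7) in nTG and 0.83 ± 0.039 (SD, n = 9) in TG hearts.

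Type V collagen starts fibrils and limits their width. Its gene Col5a1 (ENSMUSG00000026837, chr2:27886425-28039514, plus) lay at 95.9, 100 and 117 CPM in nTG and at 105, 139 and 157 CPM in TG hearts. Of the TG hearts, 8 of 9 were above every nTG heart. Its log2 fold change was 0.39 ± 0.10 (SE; edgeR's adjusted p 0.0035). Col5a2 (ENSMUSG00000026042, chr1:45374321-45503282, minus) changed by 0.48 ± 0.13 (SE; edgeR's adjusted p 0.0057), from a median of 31.5 to one of 48.5 CPM.

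Type VI collagen links cells to the fibrils around them. Col6a1 (ENSMUSG00000001119, chr10:76708792-76726168, minus) lay at 95, 110 and 124 CPM in nTG and at 117, 151 and 173 CPM in TG hearts, a log2 fold change of 0.43 ± 0.10 (SE; edgeR's adjusted p 0.00073). Its neighbour Col6a2 (ENSMUSG00000020241, chr10:76595762-76623630, minus) lay at 105, 112 and 128 CPM in nTG and at 112, 160 and 167 CPM in TG hearts. Its log2 fold change, 0.35 ± 0.10 (SE; edgeR's adjusted p 0.0067), was the smallest of the 10.

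Of the others, Col8a1 (ENSMUSG00000068196, chr16:57624258-57754737, minus), a short network-forming chain, lay at 19.8, 23.8 and 30.3 CPM in nTG and at 25.1, 40.4 and 53 CPM in TG hearts. Its log2 fold change was 0.65 ± 0.15 (SE; edgeR's adjusted p 0.0010). Col14a1 (ENSMUSG00000022371, chr15:55307750-55520803, plus), a fibril-associated collagen with an interrupted triple helix, lay at 9.71, 12.4 and 21.0 CPM in nTG and at 13, 26 and 49.7 CPM in TG hearts. It had the largest log2 fold change of the 10, 0.96 ± 0.22 (SE; edgeR's adjusted p 0.00078), with 7 of 9 TG hearts above every nTG heart. Col15a1 (ENSMUSG00000028339, chr4:47208161-47313167, plus), whose product anchors basement membranes of muscle and capillaries to the matrix, lay at 144, 174 and 198 CPM in nTG and at 183, 226 and 282 CPM in TG hearts. Its log2 fold change was 0.43 ± 0.11 (SE; edgeR's adjusted p 0.0035).

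All 10 calls in sedentary males held in each of 16 fits that left out 1 library. With the gene columns taken by name, 0 of the 10 passed. Gene models overlap Col1a2 (Gm43921, with 0.189% of its mean count), Col5a1 (2810430I11Rik, 0.346%) and Col5a2 (Gm38211, 2.82%), and the strand setting of the counting is not given in the sources used here, so reads there may be shared. In bulk tissue, fewer cells of a type and less RNA per cell cannot be told apart, and this holds for every difference given here.

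The same contrast was made in trained males. All 10 log2 fold changes were above 0, with a median of 0.30 (0.011 over all genes), and 3 passed: Col1a2 (0.43 ± 0.14, SE), Col6a1 (0.28 ± 0.09) and Col15a1 (0.37 ± 0.11). Among all genes 5.65% passed as higher and 8.31% as lower. Col1a2 lay at 110, 140 and 162 CPM in 8 trained nTG males and at 135, 169 and 349 CPM in 8 trained TG males, and 5 of the TG hearts were above every nTG heart. Col15a1 lay at 95.9, 154 and 177 CPM in nTG and at 149, 179 and 282 CPM in TG hearts, with 4 of 8 above every nTG heart. The highest of these TG values belongs to replicate 4, and without that library 0 of the 10 passed, with a median log2 fold change of 0.13, where 3.88% of all genes passed as higher. Without nTG trained male replicate 5, 1 of 10 passed. Without TG replicate 1 or 3 or nTG replicate 3, 5 of 10 passed, and in a fit of these groups alone 0 passed. Apart from the fit without TG replicate 4, these changed counts stand without the share of all genes.

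In sedentary females none of the 10 passed edgeR's threshold, where 1.58% of all genes passed as higher and 2.78% as lower. All 10 log2 fold changes were above 0, from 0.17 (Col5a2) to 0.40 (Col8a1), with a median of 0.24. At an unadjusted p under 0.05 there were 6 of 10 members and 2767 of 16913 genes. DESeq2 also called 0 members, and 851 of all genes. Col1a1 lay at 149, 184 and 360 CPM in 8 nTG and at 172, 253 and 284 CPM in 8 TG females, so no TG heart was above every nTG heart. The nTG heart at 360 CPM is replicate 4. Without it 4 of 10 passed, Col1a2 (0.43), Col5a1 (0.33), Col8a1 (0.52) and Col15a1 (0.39), where 2.26% of all genes passed as higher, and the median log2 fold change was 0.33.

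In trained females 5 of the 10 were higher in TG hearts, where 5.37% of all genes passed as higher and 9.43% as lower. These were Col1a2 (0.49 ± 0.14, SE), Col5a1 (0.29 ± 0.10), Col5a2 (0.42 ± 0.13), Col8a1 (0.43 ± 0.15) and Col15a1 (0.33 ± 0.11), and the median over the 10 was 0.42 (0.0020 over all genes). Col1a2 lay at 119, 137 and 178 CPM in 10 nTG and at 179, 196 and 247 CPM in 6 TG females, so its groups narrowly did not overlap. The share of all genes without overlap was not counted. Col3a1 lay at 148, 182 and 302 CPM in nTG and at 248, 272 and 309 CPM in TG hearts and did not pass (0.45 ± 0.16, SE; edgeR's adjusted p 0.055). The count rested on single libraries. It was 1 without nTG replicate 1, 2 without nTG replicate 3 or without TG replicate 3 or 4, 3 without nTG replicates 6, 7 or 9 or without TG replicates 2 or 5, and 9 without nTG replicate 4. A fit of these groups alone called all 10. These changed counts stand without the share of all genes in the same fits.

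Averaged over the sexes, all 10 genes were higher in TG hearts among sedentary and also among trained mice. The medians were 0.36 and 0.35 on the log2 scale, and 11% and 12.8% of all genes passed as higher. The largest changes among sedentary mice were those of Col14a1 (0.61 ± 0.15, SE) and Col8a1 (0.53 ± 0.11), and among trained mice those of Col14a1 (0.55 ± 0.15) and Col1a2 (0.46 ± 0.10). The sedentary count was 10 in all 32 fits that left out 1 library, and the trained count was 8 without TG trained male replicate 4 and no lower in the others.

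**Figure D2:**
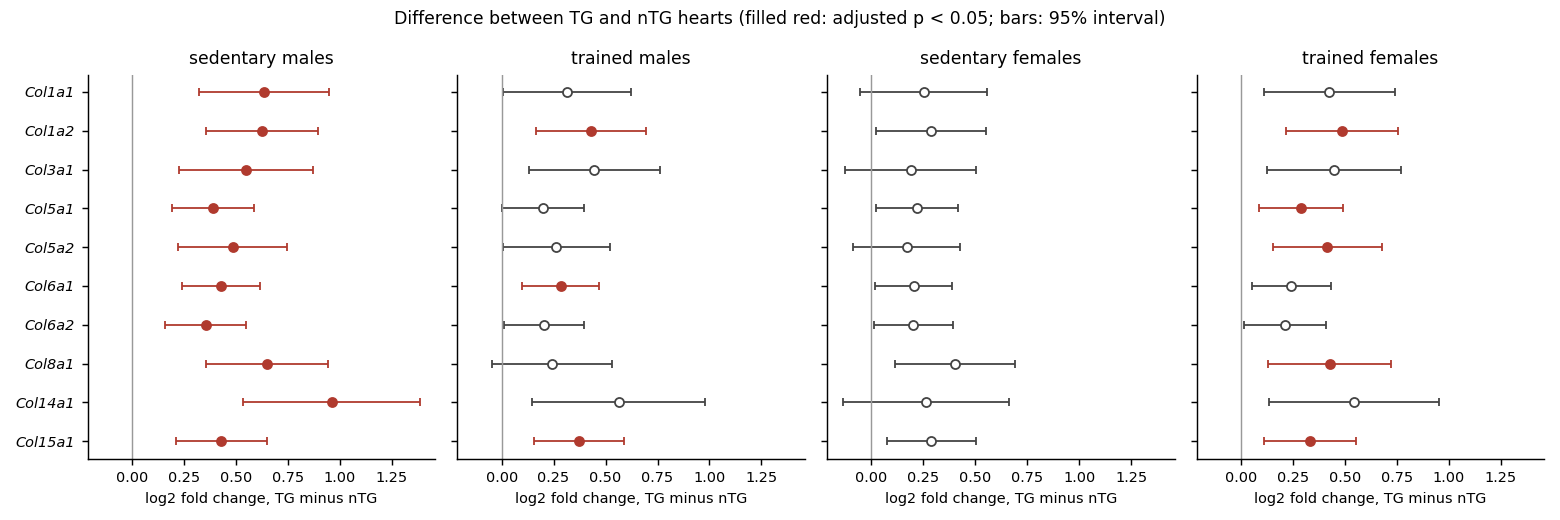
Log2 fold change of TG against nTG hearts (horizontal axes) for the 10 collagen genes in 4 settings; bars are 95% intervals and filled red points passed an adjusted p of 0.05. All points lie above 0, and 10, 3, 0 and 5 of them passed from left to right.

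Differences between these genotype effects were themselves tested, and none of the 10 genes passed in any of the interaction terms of edgeR's fit. For the change of the genotype effect with training, 0% of genes passed in males and 0% in females. For its change with sex, 0% passed among sedentary and 0% among trained mice. The change of the training effect with sex gave 0% in nTG and 0% in TG mice, and the term over genotype, training and sex 0.00591% (1 gene). At an unadjusted p under 0.05, 1 of the 10 members reached the term of genotype by sex in sedentary mice (Col14a1, -0.70 ± 0.30, SE), as 1471 of 16913 genes did, and 0 reached each of the other 6, and DESeq2 called no member in any of them. Without TG trained male replicate 4, 1 member and 460 of 16913 genes passed the change of the training effect with sex in TG mice. For Col1a1 the genotype effect in males changed with training by -0.32, with a 95% interval of -0.75 to 0.12. For Col15a1 the change was -0.055, with a 95% interval of -0.36 to 0.25. Without TG trained male replicate 4 these values were -0.56 for Col1a1 and -0.17 for Col15a1, and the median change over the 10 members went from -0.19 to -0.38, with 0 of 10 past the threshold. In females the 10 values ran from 0.0086 to 0.28 with a median of 0.12. Without nTG sedentary female replicate 4 they ran from -0.079 to 0.22 with a median of -0.0075, and the signs differed among the genes.

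The comparison of trained with sedentary mice asks whether training moves these transcripts. In TG males 5 of the 10 were lower after training: Col1a1, Col5a1, Col6a1, Col6a2 and Col15a1. All 10 log2 fold changes were below 0, with a median of -0.30 (6.7e-05 over all genes). Among all genes 7.6% passed as lower and 10.3% as higher.

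Col6a2 had the smallest p. It lay at 112, 160 and 167 CPM in 9 sedentary TG males and at 93.9, 111 and 181 CPM in 8 trained TG males. Of the trained hearts, 4 of 8 were below every sedentary heart and 1, replicate 4, was above all of them. Its log2 fold change was -0.31 ± 0.10 (SE; edgeR's adjusted p 0.020), and it passed in all 17 fits that left out 1 library. Col6a1 fell by 0.28 ± 0.09 on the log2 scale (SE; edgeR's adjusted p 0.026), from a median of 151 to one of 116 CPM.

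Among the fibrillar genes, Col1a1 lay at 129, 153 and 366 CPM in the trained TG males, against 147, 252 and 302 CPM in the sedentary ones. It fell by 0.41 ± 0.15 (SE; edgeR's adjusted p 0.049), and 7 of 8 trained hearts were below the median of the sedentary hearts. Col5a1 fell by 0.27 ± 0.10 (SE; edgeR's adjusted p 0.046) and Col15a1 by 0.30 ± 0.11 (SE; edgeR's adjusted p 0.045). The other 5 did not pass: Col1a2 (-0.30 ± 0.13, SE), Col3a1 (-0.39 ± 0.16), Col5a2 (-0.26 ± 0.13), Col8a1 (-0.25 ± 0.14) and Col14a1 (-0.43 ± 0.20).

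This result turns on TG trained male replicate 4, which was the highest of its group in all 10 genes. The summed level of the 10 genes was 2184 CPM in that heart and 911 to 1253 CPM in the other 7 trained TG males, against 1074 to 1794 CPM in the sedentary ones. Without it all 10 genes passed as lower, from -0.38 (Col5a1) to -0.79 (Col14a1), with a median of -0.45, where 12% of all genes passed as lower and 12% as higher. Without sedentary replicate 7 the count was 7, and without sedentary replicate 8 it was 6. It was 4 without sedentary replicate 3, 1 without sedentary replicate 2 or 6 or trained replicate 1, 2, 3 or 7, 2 without sedentary replicate 1, 4 or 5 or trained replicate 5, 6 or 8, and 3 without sedentary replicate 9. A fit of these groups alone called 0. Apart from the fit without trained replicate 4, no share of all genes is set beside these changed counts.

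**Figure D3:**
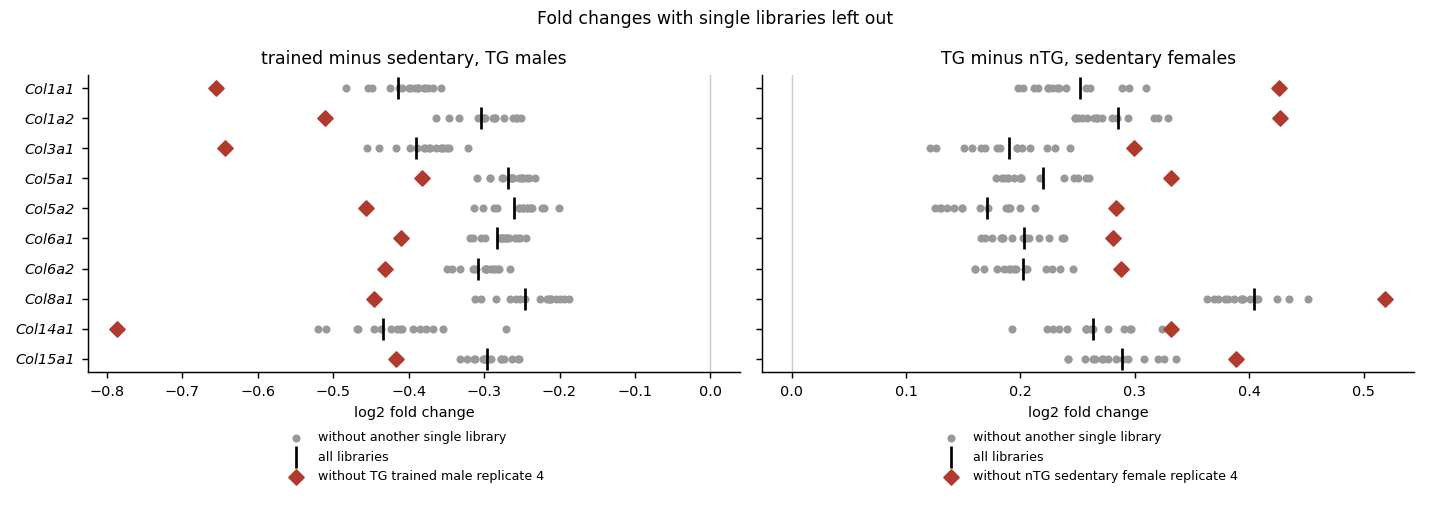
Log2 fold change (horizontal axes) of the 10 collagen genes in the comparison of trained with sedentary TG males (left) and of TG with nTG sedentary females (right). Black bars use all libraries, grey points leave out 1 other library each and red diamonds leave out replicate 4 of the trained TG males or of the sedentary nTG females; the diamonds of the left panel reach from -0.38 to -0.79.

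In the other groups no member passed with training. In nTG males 0% of all genes passed, and 1 of 10 members (DESeq2 called 0, and 4 of all genes) and 999 of 16913 genes had an unadjusted p under 0.05. In nTG females 0.148% of all genes passed, and 4 of 10 members (DESeq2 called 0, and 95 of all genes) and 2406 of 16913 genes had an unadjusted p under 0.05. In TG females the counts were 0 of 10 and 0% (DESeq2 called 0, and 0 of all genes), with 606 of 16913 genes at an unadjusted p under 0.05. The log2 fold changes in nTG females were all below 0, with a median of -0.18, and the most negative was that of Col3a1 (-0.51 ± 0.15, SE; edgeR's adjusted p 0.15). Col3a1 lay there at 190, 285 and 430 CPM in sedentary and at 148, 182 and 302 CPM in trained hearts, so the groups overlapped. Without sedentary replicate 4 the median in nTG females was -0.11. In TG females the median was -0.12, and for Col1a1 the 95% interval reached from -0.51 to 0.16.

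Averaged over the sexes, 0 of 10 passed in nTG (0.384% of all genes) and 0 of 10 in TG mice (0.52%). At an unadjusted p under 0.05 there were 7 and 6 of 10 members, beside 2154 and 3241 of 16913 genes. DESeq2 called 0 and 1 members, and 133 and 381 of all genes. Without TG trained male replicate 4 the TG count was 8 (785 of 16913 genes passed), without TG sedentary female replicate 7 it was 3, and without TG sedentary male replicate 7 it was 1. The nTG count was 1 without nTG trained female replicate 4 or nTG sedentary female replicate 6. Apart from the fit without TG trained male replicate 4, these left-out counts stand without the share of all genes.

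**Figure D4:**
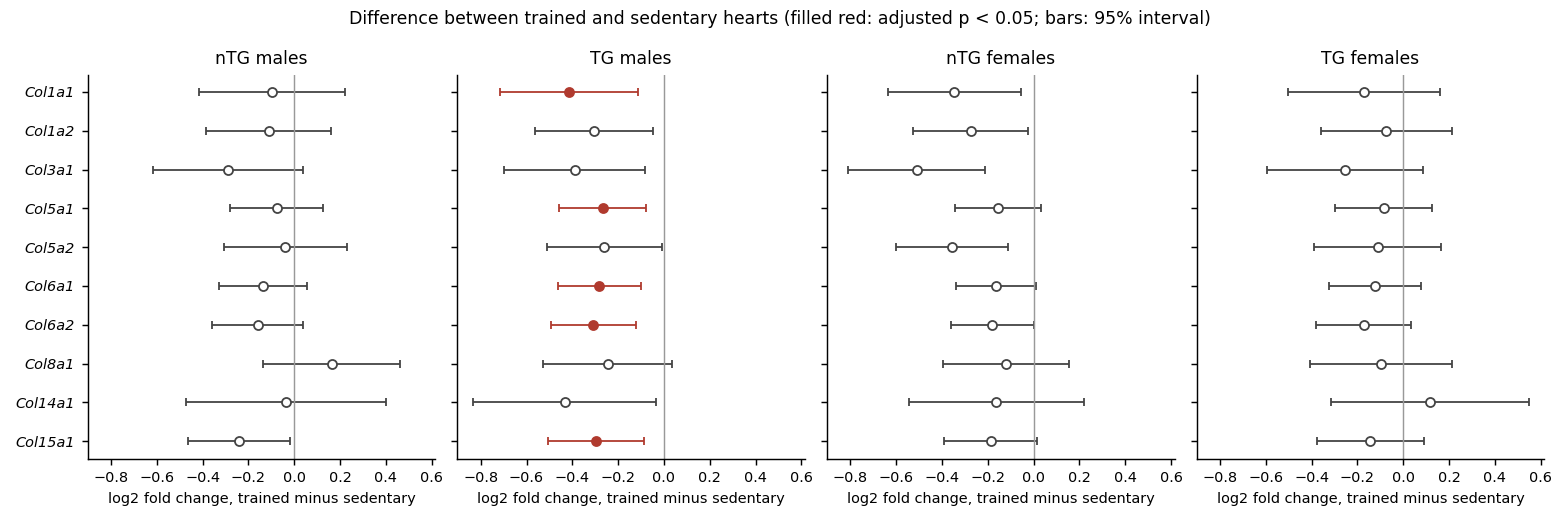
Log2 fold change of trained against sedentary hearts (horizontal axes) for the 10 collagen genes in 4 settings; bars are 95% intervals and filled red points passed an adjusted p of 0.05. The 5 filled points are all in TG males, where every point lies below 0.

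Col14a1 differed most between the sexes. In sedentary nTG hearts it lay at 9.71, 12.4 and 21.0 CPM in 7 males and at 32.5, 39.7 and 52.6 CPM in 8 females, with no overlap, a log2 difference (female minus male) of 1.57 ± 0.22 (SE; edgeR's adjusted p 2.4e-06). It was the single member that passed there, where 0.846% of all genes were higher in females, and DESeq2 called 2 members and 522 of all genes in either direction. With edgeR 2 members passed without nTG sedentary male replicate 5 or nTG sedentary female replicate 2, fits given without the share of all genes. In trained nTG hearts it lay at 9.61, 13.3 and 17.4 CPM in 8 males and at 27.3, 31.2 and 50.4 CPM in 10 females, again with no overlap, a difference of 1.44 ± 0.21 (SE; edgeR's adjusted p 1.7e-06). How many of all genes had no overlap between the sexes was not counted.

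In TG hearts the sexes overlapped in Col14a1 through 1 male heart in each setting, and all other males were below every female. Sedentary TG males lay at 13, 26 and 49.7 CPM and females at 34.2, 49.5 and 64.9 CPM, a difference of 0.87 ± 0.20 (SE; edgeR's adjusted p 0.0065). Trained TG males lay at 12, 15.4 and 48.9 CPM and females at 41.6, 49.1 and 77.6 CPM, a difference of 1.42 ± 0.22 (SE; edgeR's adjusted p 2.3e-05). The share of all genes higher in females was 1.57% among sedentary and 0.733% among trained TG mice. The male values of 49.7 and 48.9 CPM belong to sedentary replicate 5 and trained replicate 4, and without them the males reached 31.1 and 19.9 CPM.

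Col15a1 was the second member to pass in trained nTG mice (0.40 ± 0.11, SE; edgeR's adjusted p 0.025), where 1.28% of all genes were higher in females. It no longer passed without nTG trained male replicate 4, 5 or 8 or without nTG trained female replicate 8, and a fit of these groups alone called 4 members. The share of all genes in that fit is not set beside this count. The other 8 genes did not pass between the sexes in any of the 4 settings with all libraries. Without TG trained male replicate 4, 6 of 10 passed as higher in trained TG females, where 2.54% of all genes did.

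The 10 genes varied together from heart to heart. Within groups, the Pearson correlation of their log2 CPM ran from 0.48 (Col14a1 with Col15a1) to 0.963 (Col1a1 with Col1a2) over the 45 pairs and 64 libraries, given as a description because all values of a library share its depth and its cell composition. Outside the collagens, the 5 genes whose levels over the 64 libraries were most like the mean of the 10, of 13356 compared, were Mrc2 (r = 0.946), Emilin1 (0.940), Igfbp7 (0.939), Tnc (0.926) and Adamts2 (0.922). Mrc2 encodes a receptor that takes up collagen, Emilin1 and Tnc matrix glycoproteins, Igfbp7 a secreted binding protein and Adamts2 the protease that trims the amino end of procollagen.

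**Figure D5:**
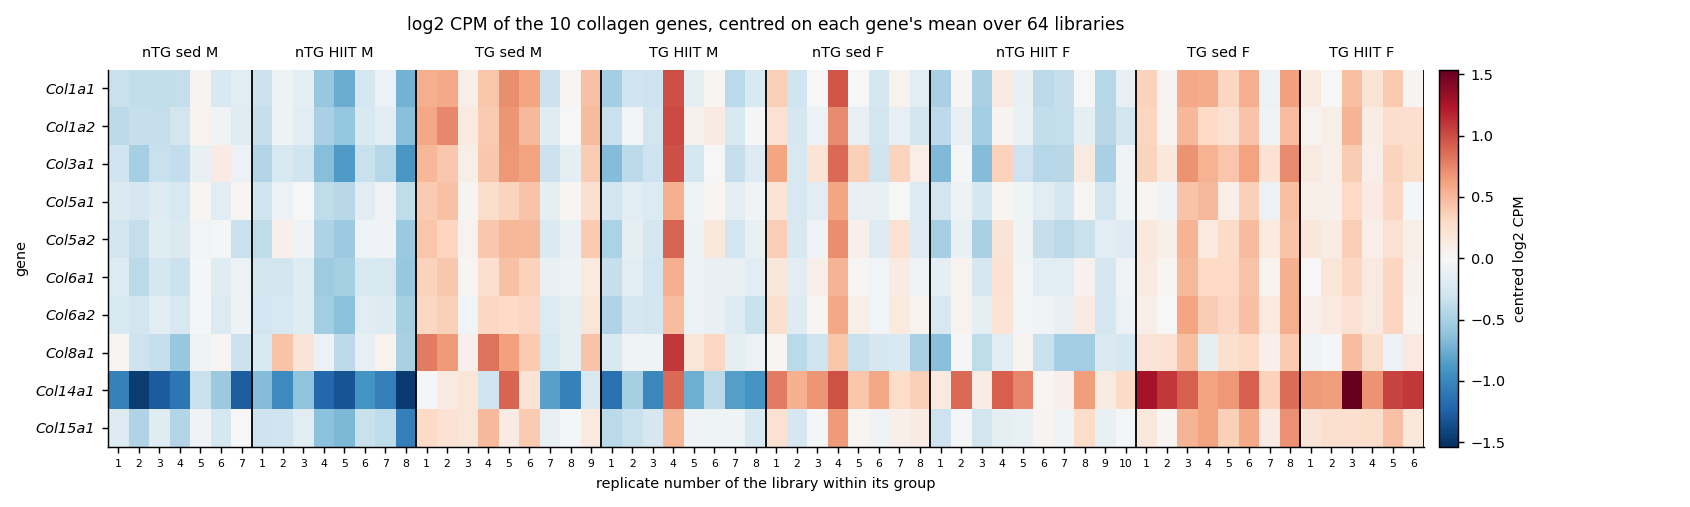
Log2 CPM of the 10 collagen genes (rows) in the 64 libraries (columns, by group and replicate number), centred on each gene's mean; red is above and blue below it. Most rows of a column share a colour, Col14a1 is redder in the female and bluer in many of the male libraries than the other rows, and replicate 4 of the trained TG males and of the sedentary nTG females are red within paler groups.

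The other genes of collagen handling were followed as lists, described by counts in the comparison of TG with nTG sedentary males, where 9.39% of all genes were higher and 11.2% lower (all-gene median -0.0052). Of 31 measured genes for processing and crosslinking, 12 were higher and 0 lower, with a list median of 0.10. Among them were Loxl1, a lysyl oxidase (0.57 ± 0.11, SE), Adamts2 (0.61 ± 0.13) and Pcolce, which enhances trimming of the carboxyl end (0.49 ± 0.10). Of 19 collagen-binding proteoglycans and fibril regulators, 9 were higher and 0 lower, with a median of 0.38. Examples are the small leucine-rich proteoglycans Lum (0.79 ± 0.13) and Bgn (0.60 ± 0.14) and the tenascin Tnxb (0.48 ± 0.09).

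Genes of breakdown moved in the same comparison. Of 14 measured, 6 were higher and 1 lower, with a median of 0.33. The gelatinase gene Mmp2 (0.87 ± 0.14, SE), the membrane-bound protease gene Mmp14 (0.72 ± 0.13) and the inhibitor gene Timp1 (1.43 ± 0.31) were higher, and the inhibitor gene Timp4 fell by 0.63 ± 0.20. Of 8 collagen receptors 4 were higher and 0 lower (median 0.18), among them Lair1 (0.66 ± 0.14), Ddr2 (0.26 ± 0.06) and Ddr1 (0.32 ± 0.10). Of the 26 other collagen genes 9 were higher and 1 lower (median 0.23). Col6a3, the third chain of type VI, rose by 0.64 ± 0.11, the basement membrane chain Col4a5 by 0.31 ± 0.05 and Col9a2, at 0.0944 to 0.928 CPM in these groups, by 1.27 ± 0.32, while Col13a1 fell by 0.53 ± 0.18.

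Over all genes, the share higher in TG hearts was 5.65% for the trained males, and 1.58% (sedentary) and 5.37% (trained) for the females. In trained males, sedentary females and trained females the counts of higher genes were 1, 0 and 4 of 31 for processing, 5, 2 and 4 of 19 for proteoglycans, 4, 1 and 3 of 14 for breakdown, 2, 1 and 2 of 8 for receptors and 6, 2 and 9 of 26 for other collagens. The 1 lower gene was P4ha2 in trained males (-0.26 ± 0.07, SE), where 8.31% of all genes were lower. Among the females 2.78% (sedentary) and 9.43% (trained) of all genes were lower. Lum and Mmp2 were higher in all 4 settings, by 0.71 ± 0.13 and 0.58 ± 0.14 in trained males, 0.44 ± 0.13 and 0.49 ± 0.14 in sedentary females and 0.48 ± 0.13 and 0.48 ± 0.14 in trained females. Without TG trained male replicate 4, the counts of higher genes in trained males were 0, 3, 1, 2 and 2 in the same order of lists (3.88% of all genes). Without nTG sedentary female replicate 4, those in sedentary females were 1, 2, 2, 2 and 3 (2.26% of all genes). In that fit 1 processing gene was lower (3.52% of all genes).

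After training, where 7.6% of all genes were lower and 10.3% higher, TG males had 8 lower and 2 higher of 31 processing genes, 5 lower and 1 higher of 19 proteoglycans and regulators, 3 lower and 1 higher of 14 breakdown genes, 0 lower and 1 higher of 8 receptors and 5 lower of 26 other collagens. Lower were Loxl1 (-0.42 ± 0.11, SE), Sparc, a collagen-binding glycoprotein (-0.35 ± 0.10), Mmp14 (-0.50 ± 0.12) and the basement membrane genes Col4a1 (-0.39 ± 0.10) and Col4a2 (-0.39 ± 0.09). Higher were Timp4 (0.86 ± 0.19), the lysyl hydroxylase gene Plod2 (0.18 ± 0.05) and the integrin gene Itgb1 (0.18 ± 0.04). Without TG trained male replicate 4 the lower counts were 14, 7, 5, 2 and 10 in the same order, and 12% of all genes were lower. The higher counts were then 2, 0, 1, 1 and 0, and 12% of all genes were higher. In the other 3 training comparisons 0 genes of these lists passed in edgeR's test.

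Markers of cell types moved with these results, and their part in them was not tested. In sedentary males (9.39% of all genes higher, 11.2% lower) 5 of 8 fibroblast markers were higher in TG hearts and 0 lower, with summed levels of 1261 to 1888 CPM in nTG and 1515 to 1945 CPM in TG hearts. Of 5 measured markers of activated fibroblasts 2 were higher (Meox1, 0.62 ± 0.16, SE, and Postn, 0.66 ± 0.22), with sums of 108 to 239 and 113 to 236 CPM. All 5 macrophage markers were higher, with sums of 114 to 155 CPM in nTG and 149 to 251 CPM in TG hearts. Of 6 cardiomyocyte markers 4 were lower, with sums of 56984 to 68266 and 50987 to 59762 CPM, and Wt1, 1 of 2 measured epicardial markers, was higher. None of the endothelial (5), mural (5), adipocyte (2), Schwann cell (3), blood (5) or cartilage (2) markers passed. No measured marker of any list was at 0 in all libraries.

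In trained TG males (7.6% of all genes lower, 10.3% higher), 1 of 8 fibroblast markers (Tcf21), 1 of 5 activated fibroblast markers (Meox1), 3 of 5 macrophage, 2 of 5 endothelial and 2 of 5 mural markers were lower than in sedentary ones, and 2 of 6 cardiomyocyte markers and 1 of 3 Schwann cell markers were higher. Fibroblast sums were 1515 to 1945 CPM in sedentary and 1423 to 1939 CPM in trained TG males. All 5 blood markers were lower, with sums of 290 to 4603 CPM in sedentary and 260 to 554 CPM in trained TG males. The heart at 4603 CPM is sedentary replicate 5, and without it 2 of the 10 collagens passed as lower. Without trained replicate 4, 3 fibroblast, 2 activated fibroblast, 4 macrophage and 4 endothelial markers were lower and 4 cardiomyocyte markers higher, against 12% of all genes in each direction. In that fit 1 of 2 epicardial markers was lower and 0 Schwann cell markers were higher. The part of these markers in the result was not tested.

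In the other genotype comparisons, 3 fibroblast and 3 macrophage markers were higher and 2 cardiomyocyte markers lower in trained TG males, with 1 Schwann cell marker higher and 1 endothelial marker lower (5.65% of all genes higher, 8.31% lower). The 5 blood markers were lower there, with sums of 573 to 1112 CPM in nTG and 260 to 554 CPM in TG hearts. Without TG trained male replicate 4, 2 fibroblast and 0 Schwann cell markers were higher (3.88% of all genes). In sedentary females 0 fibroblast and 0 macrophage markers passed and 1 cardiomyocyte marker was lower (1.58% of all genes higher, 2.78% lower). Without nTG sedentary female replicate 4, 1 fibroblast and 1 activated fibroblast marker were higher (2.26% of all genes). In trained females 2 fibroblast and 4 macrophage markers were higher and 3 cardiomyocyte markers lower (5.37% of all genes higher, 9.43% lower). Between the sexes 0 or 1 of the 8 fibroblast markers were higher in females in each of the 4 settings, against 0.733% to 1.57% of all genes. Among sedentary TG mice 1 was lower in females, where 2.25% of all genes were lower.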

How the data were processed

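Hearts of 64 mice in 8 groups were profiled by bulk RNA sequencing of total RNA after rRNA depletion with the xGen Broad-range kit, per the labels' protocols. The authors deposited a table of gene counts (whole numbers, not normalized) and a table of estimated counts of long non-coding transcripts. Per the submitters' processing notes, which give no role or order, cutadapt 2.3, FastQC 0.11.8, MultiQC 1.7, STAR 2.7.8a, RSEM 1.3.3 and GRCm38 (mm10) were used; the counting settings are not given in the sources used here. Symbols were found for 16887 of 16913 gene IDs.

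Gene columns were joined to labels by their correlation with the long non-coding columns, over centred log2 CPM (pseudocount 0.5) of 389 autosomal transcripts with a mean of at least 20 counts. The estimated counts were used without rounding. The best match was mutual for 64 of 64 libraries, and 1 joined column had the same name in both tables. The tests of the gene counts used edgeR 4.0.16 (quasi-likelihood test, TMM scaling, filterByExpr, 56 residual degrees of freedom, limma 3.58.1) in R 4.3.3 over all 8 groups, with Benjamini-Hochberg adjustment over all genes and a threshold of 0.05. DESeq2 1.42.0 was an alternative. The SE of a log2 fold change is its size divided by the root of the F statistic, and intervals are at 95%. CPM of the collagens, lists and markers used library totals adjusted by TMM, and CPM of Tnnt2 used plain totals. Log2 CPM used a prior count of 2. The fit was checked on simulated counts.

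The 10 collagens and the gene and marker lists were chosen with earlier results of these data known. Named genes are the 10 collagens, up to 3 genes per list and direction with the smallest p among those that passed, and the 5 genes with a mean of at least 50 counts most like the mean of the 10; marker genes named beside a count of 5 or fewer were named after their values were seen. Counts of the lists without TG trained male replicate 4 or nTG sedentary female replicate 4 were added after seeing the data. The labels call all libraries biological replicates, and the closest of all pairs of libraries differed by more than sampling noise (chi-square per degree of freedom 9.37). The alternatives were another scaling, DESeq2, other filters on low counts, no mitochondrially encoded genes, fits of the compared groups alone, a replicate block, gene columns taken by name and leaving out each library.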

Additional observations from a re-analysis of the deposited data

Results flagged for a closer look

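Within each group and for each of the 10 collagens, the highest or lowest heart was checked for a gap to the rest that exceeds Dixon's 95% limit. Of 80 groups examined 18 did, where chance gives about 4, and genes of 1 heart are not independent.

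TG trained male replicate 4 was far above the other 7 of its group in all 10 genes. Its Col1a1 level was 366 CPM (others 129 to 188) and its Col1a2 level 349 CPM (others 135 to 188). Col3a1 was at 470.4 CPM (others 149 to 235), Col5a1 at 168 CPM (others 93.5 to 117) and Col5a2 at 68.8 CPM (others 26.2 to 41.2). Col6a1 was at 188 CPM (others 98.9 to 120) and Col6a2 at 181 CPM (others 93.9 to 121). Col8a1 was at 63.1 CPM (others 25.3 to 36.9), Col14a1 at 48.9 CPM (others 12 to 19.9) and Col15a1 at 282 CPM (others 149 to 191). In the same heart the summed fibroblast markers were at 1939 CPM (others 1423 to 1932), those of activated fibroblasts at 254 CPM (others 106 to 217), those of macrophages at 252 CPM (others 146 to 191) and those of cardiomyocytes at 47312 CPM, the lowest of the group (others 53923 to 61928). Epicardial (10.1 CPM, others 5.90 to 9.34), adipocyte (5.06 CPM, others 0.157 to 2.74) and Schwann cell markers (7.87 CPM, others 4.66 to 6.63) were the highest of the group, and Tnnt2 was the lowest (7523 CPM, others 8041 to 10336). Its mitochondrial share, 14.4%, and its total, 42.2 M counts, were also the lowest of the 8. Their part in the collagen values was not tested.

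nTG sedentary female replicate 4 was the highest of its group in all 10 genes and far from the rest in 6. These were Col1a1 at 360 CPM (others 149 to 237), Col1a2 at 284 CPM (others 142 to 202), Col5a1 at 175 CPM (others 96.9 to 133), Col6a1 at 182 CPM (others 113 to 143), Col8a1 at 39.97 CPM (others 21.0 to 30.003) and Col15a1 at 312 CPM (others 166 to 233). Its summed cartilage markers were at 21.2 CPM (others 0.485 to 11.4) and its fibroblast markers at 1931 CPM (others 1366 to 1894). Its activated fibroblast markers were at 235 CPM (others 120 to 186), its blood markers at 724 CPM (others 403 to 723) and its cardiomyocyte markers at 56060 CPM, the lowest of the group (others 57801 to 66003). Their part was not tested.

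Col14a1 was at 49.7 CPM in TG sedentary male replicate 5 (others 13 to 31.1), the heart whose blood markers summed to 4603 CPM (others 290 to 1150). It was also the highest in adipocyte markers (11.1 CPM, others 0.430 to 2.48), macrophage markers (251 CPM, others 149 to 242) and total counts (57.7 M, others 35.4 M to 47.4 M). It was the lowest in cardiomyocyte markers (50987 CPM, others 51499 to 59762) and Tnnt2 (6903 CPM, others 7543 to 9239), and their part was not tested. Among the trained TG females, replicate 5 had 271 CPM of Col15a1 (others 222 to 239). That heart was also the highest in mural markers (867 CPM, others 753 to 824) and the lowest in mitochondrial share (14.9%, others 15.1% to 17.6%), and their part was not tested.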

How the results depend on the processing

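Size factors by the median of ratios, no filter on low counts, a filter at a mean of 50 counts and leaving out mitochondrially encoded genes kept every count of collagens called within 1.5 times. DESeq2 did so except for training in TG mice averaged over the sexes (1, with 381 of all genes) and sex in sedentary nTG mice (2, with 522 of all genes). Counts from the other alternatives in this section stand without the share of all genes. Fits of the compared groups alone gave 0 for genotype in trained males, 10 for genotype in trained females, 0 for training in TG males and 4 for sex in trained nTG mice. Gene columns taken by name gave 0 for genotype in sedentary males, trained males and trained females, for both genotype averages over the sexes, for training in TG males and for all 4 sex comparisons, 1 for training in nTG males and 9 for training in nTG mice averaged over the sexes. They turned the sign of 11 called values: Col14a1 in sedentary males (-0.28), Col1a2 (-0.11), Col6a1 (-0.093) and Col15a1 (-0.044) in trained males, Col5a1 (-0.071) and Col15a1 (-0.23) in trained females, and, for training in TG males, Col1a1 (0.15), Col5a1 (0.061), Col6a1 (0.13), Col6a2 (0.098) and Col15a1 (0.098). By-name columns contradict sex or genotype in 45 libraries; the other causes were not tested.

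Leaving out each library in turn gave 10 for genotype in sedentary males, 0 to 5 in trained males, 0 to 4 in sedentary females and 1 to 9 in trained females. It gave 10 for the sedentary and 8 to 10 for the trained genotype average. Training gave 1 to 10 in TG males, 0 to 8 in TG and 0 to 1 in nTG mice averaged over the sexes. Sex gave 1 to 2 in sedentary nTG, 1 to 2 in trained nTG and 1 to 6 in trained TG mice, and the change of the training effect with sex in TG mice 0 to 1. The 5 in trained males came without TG replicate 1 or 3 or nTG replicate 3.

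The replicate numbers do not pair the samples: in 8 comparisons same-numbered libraries correlated at -0.288 to 0.337, and at most 2 of 7 libraries correlated best with their own number. A replicate block gave 2 collagens for genotype in trained females and kept the other counts within 1.5 times. Depth limits these genes little, since the lowest count of any of them in a library was 450.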
